A study of Mus musculus with 12 samples.

Results

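Hmgcs1, a gene of sterol synthesis, was described together with 4 transcribed neighbours or copies of sterol genes. These 5 genes were taken by gene name from the 27942 genes with usable annotation. Gm48342 is an antisense gene over Hmgcs1, Gm37784 a processed pseudogene copied from part of Insig1, and Gm5873 and Gm3571 processed pseudogenes copied from Fdps. The parent genes Fdps and Insig1 themselves were not analysed here, and how far the values of the copies reflect them was not tested. RNA was sequenced from C2C12, an established mouse myoblast line derived by subcloning, which fuses into multinucleated myotubes after serum is lowered. All cells were grown with 10% fetal bovine serum to 80% density and then held for 7 days in 2% horse serum. The OI group (3 libraries) received 25 µmol/L 4-octyl itaconate, an ester of the metabolite itaconate that enters cells. The control group (3 libraries) received no 4-octyl itaconate. The labels do not say whether the libraries of a group came from separate cultures, so each p-value reflects library-to-library spread only, part or all of which may be technical. The samples labelled as a second set, 3 per group, were not analysed here.

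Cholesterol and the isoprenoids are built from acetyl-CoA through the mevalonate pathway. Hmgcs1 encodes the cytosolic HMG-CoA synthase, which makes the substrate of HMG-CoA reductase, and Fdps encodes farnesyl diphosphate synthase, which makes the branch point between sterols, dolichol, ubiquinone and prenylated proteins. Insig1 encodes a membrane protein of the endoplasmic reticulum that holds the SCAP and SREBP complex back when sterols are plentiful. When sterols fall, SREBP2 moves to the nucleus and activates the genes of the pathway, Hmgcs1, Fdps and Insig1 among them. Differentiating muscle cells use the same pathway for membrane sterol and for the prenylation of small GTPases.

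Control replicate 1 stood apart from the other libraries before any of these genes was considered. The rRNA-derived locus AY036118 was at 70761 FPKM there (fragment counts scaled to gene length and library size, the authors' unit) and between 691 and 2450 FPKM elsewhere. The genes in the tables took 25.1% of the reads of that library and between 5.61% and 6.15% of the others. Of these reads AY036118 held 26.0% in control replicate 1 and between 1.14% and 3.71% elsewhere, so most fell on other genes in each library. Median-of-ratios size factors over the tested genes, which do not depend on a few abundant genes, lay between 0.983 and 1.01. Library sizes recovered from the FPKM values ran from 24441000 to 36274000 reads or fragments. Of 30 markers of myotubes, myoblasts and other cell types, 1 was among the genes analysed, the troponin gene Tnnc1 of slow and cardiac muscle, at 110 to 140 FPKM in control and 21.9 to 24.7 FPKM in OI. The cell type could not be checked further, since the other markers were not analysed here.

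The sequences below show how closely the copies resemble their parents, which bears on what their values measure. The 189 bases of Gm37784 (chr3:69963282-69963470, plus strand, GRCm38) match the last 189 coding bases of Insig1, at positions 664 to 852 of its transcript, with 2 mismatches that are printed in capitals.
Insig1: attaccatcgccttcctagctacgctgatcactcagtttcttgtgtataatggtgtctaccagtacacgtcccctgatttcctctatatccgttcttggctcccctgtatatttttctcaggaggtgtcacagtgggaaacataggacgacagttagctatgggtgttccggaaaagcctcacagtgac
Gm37784: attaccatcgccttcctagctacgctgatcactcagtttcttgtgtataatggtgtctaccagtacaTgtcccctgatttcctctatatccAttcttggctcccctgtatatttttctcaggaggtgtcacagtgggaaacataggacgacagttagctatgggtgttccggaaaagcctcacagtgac
For the Fdps copies, a stretch of 90 coding bases with the most differences is shown, from position 914 to 1003 of the Fdps transcript. Capitals mark bases that differ from Fdps, 1 in Gm3571 and 7 in Gm5873.
Fdps: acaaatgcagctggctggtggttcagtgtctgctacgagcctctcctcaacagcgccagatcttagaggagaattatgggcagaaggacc
Gm3571: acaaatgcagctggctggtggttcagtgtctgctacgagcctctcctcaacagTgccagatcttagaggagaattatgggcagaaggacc
Gm5873: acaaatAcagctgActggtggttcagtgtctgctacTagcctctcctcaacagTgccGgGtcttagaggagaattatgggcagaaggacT

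Over their whole lengths the 3 copies differ from their parents by few bases. Gm3571 (chr10:93778660-93779719, plus strand) is 98.9% identical to Fdps over 1060 bases, with 10 mismatches, all of them transitions, and 1 gap. Gm5873 (chr6:6735427-6736492, minus strand) is 96.7% identical over 1066 bases, with 28 mismatches, of which 19 are transitions, and 3 gaps. Both copies start at the first coding base of Fdps, and the gaps shift the reading frame, so that the first stop comes after 185 codons in Gm3571 and 219 in Gm5873, against 353 codons in Fdps. The 2 copies differ from each other at 36 of 1059 aligned positions and share 2 differences from Fdps. None of the 3 copies overlaps another annotated gene. The nearest protein-coding gene is Otol1 for Gm37784 (44143 bases away), Ntn4 for Gm3571 (31453 bases) and Dlx6 for Gm5873 (126842 bases).

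The sources used here give neither the read length nor the treatment of reads with several matches. Of all 50-base windows of a copy, 52.8% occur unchanged in Fdps for Gm3571, 23.9% for Gm5873, and 47.1% occur in Insig1 for Gm37784. At 100 bases these shares are 17.7%, 7.45% and 0%, and at 150 bases 4.28%, 1.42% and 0%. The longest stretch identical to the parent is 188 bases in Gm3571, 162 in Gm5873 and 97 in Gm37784. The values of the copies are therefore uncertain, since reads of the parent can be placed on them, and how many were was not tested.

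**Figure D1:**
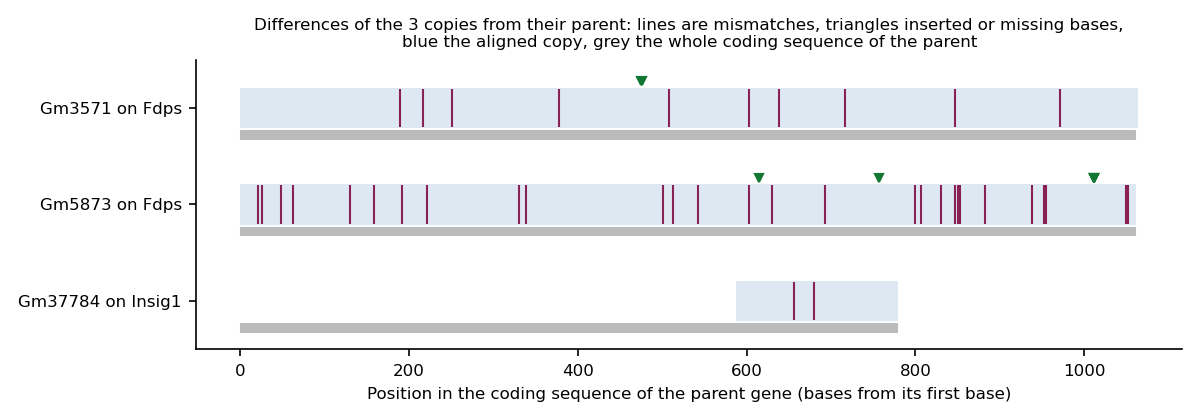
Position of each difference between the copies and the coding sequence of their parent (x axis, bases from the first coding base), with lines for mismatches and triangles for inserted or missing bases. Gm3571 carries 10 mismatches and Gm5873 28 over the whole Fdps coding sequence, and Gm37784 carries 2 over the last part of Insig1.

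The region before Hmgcs1 is shown because SREBP2 acts on the gene there. The 250 bases before the RefSeq start site (chr13:119690101-119690350, plus strand, GRCm38.p6) are printed 5′ to 3′, with motif matches on either strand in capitals.
Hmgcs1: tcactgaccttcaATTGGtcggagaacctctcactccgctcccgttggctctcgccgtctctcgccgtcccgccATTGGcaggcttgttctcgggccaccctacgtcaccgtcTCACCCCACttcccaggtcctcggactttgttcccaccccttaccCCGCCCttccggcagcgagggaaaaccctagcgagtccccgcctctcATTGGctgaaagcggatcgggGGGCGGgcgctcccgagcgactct
The sterol regulatory element TCACNCCAC matched once, at positions -137 to -129 from the start site, the NF-Y box CCAAT 3 times and the Sp1 box GGGCGG 2 times, with no overlap between matches. Among 32851 RefSeq promoters of the same length, 1.05% hold the sterol element, 33.8% the NF-Y box and 32.7% the Sp1 box. A match is a description of these letters and not of a bound factor. In the same window Insig1 holds 1 NF-Y box, 3 Sp1 boxes and no match to the sterol element as spelled here.

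Hmgcs1 (ENSMUSG00000093930, chromosome 13, 119690379 to 119708260, plus strand), the only gene of the 5 that makes a known enzyme, was the most abundant. Its level in control replicates 1 to 3 was 64.6, 76.4 and 73.7 FPKM, and in OI replicates 1 to 3 it was 85.1, 84.2 and 95.2 FPKM. All 3 OI libraries were above all 3 control libraries. Control averaged 71.6 ± 6.18 FPKM and OI 88.2 ± 6.14 FPKM (SD, n = 3 each), a ratio of 1.23. On the log2(FPKM + 1) scale the difference was 0.30 ± 0.09 (SE), with a 95% confidence interval for this gene alone of 0.07 to 0.52, and it did not pass the test over all genes (limma adjusted p = 0.177). The FPKM of Hmgcs1 equals whole reads, from 7251 in control replicate 1 to 14032 in OI replicate 2, when 4594 bases are taken as its length, the exonic bases of its 4 annotated transcripts together, so counting error is small beside the spread between libraries. Quantile normalization gave a larger difference, 0.50 on the log2 scale, which also missed the threshold (limma adjusted p = 0.102). This adjusted p was the lowest of the 11 other settings, which ran up to 0.660. In bulk RNA a change in the share of cells that express a gene and a change in RNA per cell cannot be told apart.

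**Figure D2:**
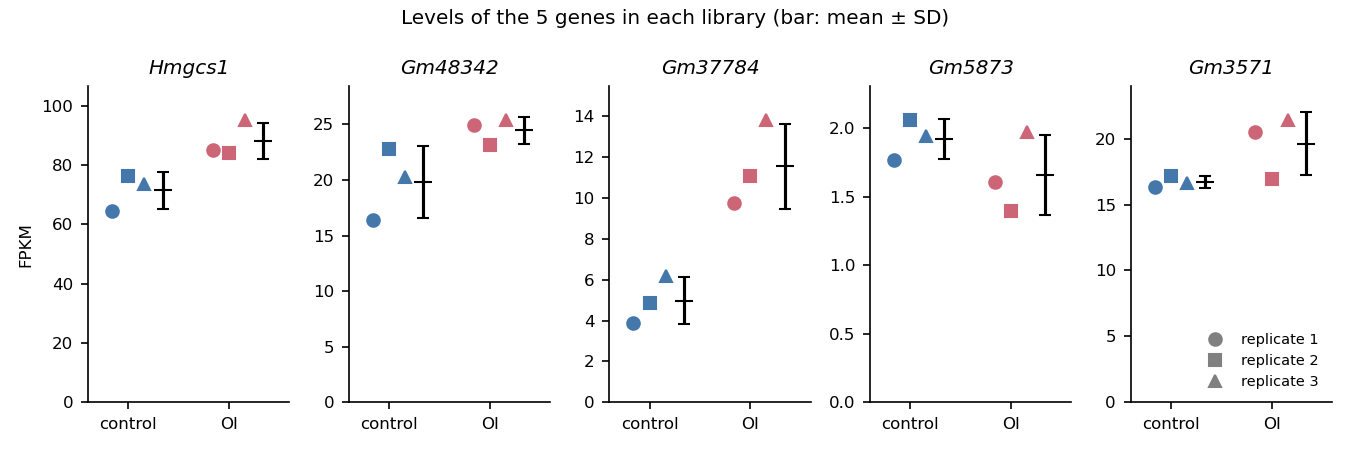
FPKM (y axis, starting at 0) of each gene in the 3 control and 3 OI libraries, with the mean ± SD beside the points and 1 symbol per replicate number. The groups do not overlap for Hmgcs1, Gm48342 and Gm37784 and overlap for Gm5873 and Gm3571.

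Gm48342 (ENSMUSG00000114934, chromosome 13, 119698360 to 119704549, minus strand) is annotated as an antisense transcript of 2 exons inside Hmgcs1, and no function is described for it here. Of its 1899 exonic bases 557, or 29.3%, are also exonic in Hmgcs1 on the other strand, in stretches of 458 and 99 bases, and 547 of them are coding there. The sources used here do not say whether reads were counted by strand, so reads of the shared stretches cannot be assigned to one of the genes. Its level was 16.4, 22.8 and 20.2 FPKM in control replicates 1 to 3 and 24.9, 23.1 and 25.4 FPKM in OI replicates 1 to 3. The OI libraries were again above the control libraries, but the gap between control replicate 2 and OI replicate 2 was narrow. The log2 difference was 0.30 ± 0.12 (SE; interval -0.0011 to 0.60, limma adjusted p = 0.283), and without control replicate 1, the lowest library, it was 0.18 (limma adjusted p = 0.431).

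Gm48342 followed Hmgcs1 closely. Its FPKM was 25.5%, 29.9% and 27.5% of that of Hmgcs1 in control replicates 1 to 3 and 29.3%, 27.4% and 26.7% in OI replicates 1 to 3. The mean share was 27.6 ± 2.22% in control and 27.8 ± 1.35% in OI (SD, n = 3 each), and the groups overlapped. The log2 ratio differed by 0.01 between groups (exact permutation test, two-sided, p = 1, where the smallest p that 3 against 3 allows is 0.1). This difference turned negative without control replicate 1 (-0.04) or OI replicate 1 (-0.03). The measured share of 25.5% to 29.9% stands beside the 29.3% of Gm48342 bases that lie in Hmgcs1 exons. How much of the signal at Gm48342 comes from Hmgcs1 transcripts was not tested.

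**Figure D3:**
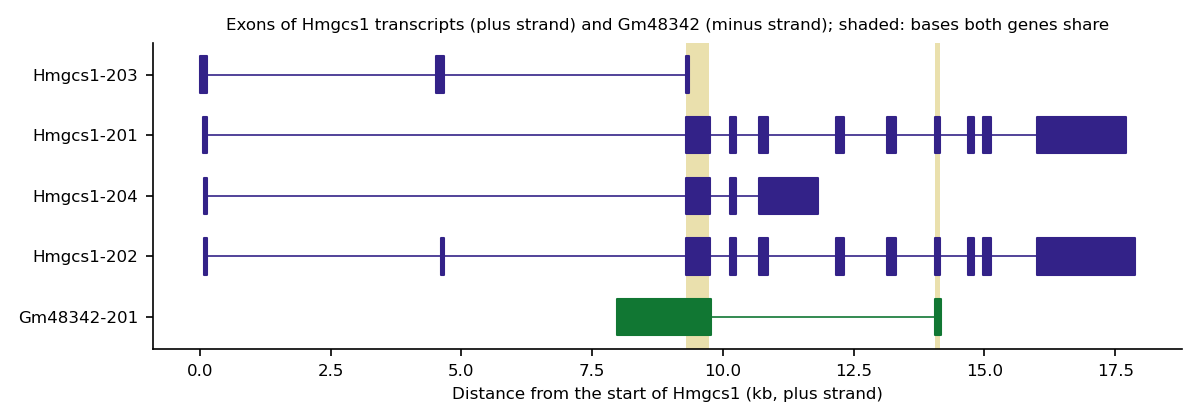
Exons of the 4 Hmgcs1 transcripts (plus strand) and of Gm48342 (minus strand) by distance from the start of Hmgcs1 in kb, with the bases shared by both genes shaded. The shared stretches of 458 and 99 bases are coding in Hmgcs1 at 547 of their 557 bases.

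Gm37784 (ENSMUSG00000102525, chromosome 3), the copy of the end of the Insig1 coding sequence, rose with OI. In control replicates 1 to 3 it measured 3.90, 4.85 and 6.17 FPKM, and in OI replicates 1 to 3 it measured 9.72, 11.1 and 13.8 FPKM. Every OI library was above every control library, and the lowest OI value exceeded the highest control value by more than the spread within the control group. The means were 4.97 ± 1.14 FPKM and 11.5 ± 2.08 FPKM (SD, n = 3 each), a ratio of 2.32, and the log2 difference was 1.07 ± 0.18 (SE; interval 0.64 to 1.51, limma adjusted p = 0.0372). It was the only one of the 5 genes to pass, where 2.76% of the 1737 tested genes did and 1.15% passed as higher in OI. Of the 5 genes 3 had groups that did not overlap, all of them higher in OI, against 23.6% of the tested genes in either direction and 11.1% as higher.

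The reads behind Gm37784 are few. They numbered 18, 28 and 35 in control replicates 1 to 3 and 59, 76 and 67 in OI replicates 1 to 3. An exact Poisson 95% interval, which covers counting error only, runs from 10.7 to 28.4 reads for control replicate 1 and from 44.9 to 76.1 for OI replicate 1. Counting error alone gives a coefficient of variation of 11.5% to 23.6% per library, beside an observed 23.0% between control libraries and 18.0% between OI libraries. The call was lost on recovered reads with limma voom (log2 difference 1.17, adjusted p = 0.0790). Over the 11 other settings, voom among them, the limma adjusted p ran from 0.0234 to 0.149. The call was also lost without any 1 library other than control replicate 3 (limma adjusted p from 0.0671 to 0.141), the difference staying between 0.94 and 1.21. With a pseudocount of 5 the log2 difference was 0.73, since the scale understates changes of low genes.

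Relative to Hmgcs1, Gm37784 was higher in OI. Its FPKM was 6.03%, 6.36% and 8.38% of that of Hmgcs1 in control replicates 1 to 3 and 11.4%, 13.2% and 14.5% in OI replicates 1 to 3. The groups did not overlap. This ratio was added after the values were seen and is given without a test.

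The Fdps copies did not pass the test, and their log2 differences lay on opposite sides of 0. Control replicates 1 to 3 held Gm3571 at 16.3, 17.2 and 16.6 FPKM and OI replicates 1 to 3 at 20.5, 16.9 and 21.4 FPKM, so that OI replicate 2 lay at the control level. Its means were 16.7 ± 0.44 FPKM and 19.6 ± 2.39 FPKM (SD, n = 3 each), with a log2 difference of 0.21 ± 0.10 (SE; interval -0.03 to 0.46, limma adjusted p = 0.340). Between 423 and 699 reads per library stood behind these values.

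Gm5873 was the least abundant gene of the 5. Control replicates 1 to 3 measured 1.77, 2.06 and 1.94 FPKM, and OI replicates 1 to 3 measured 1.61, 1.40 and 1.97 FPKM. OI replicate 3 lay among the control libraries and the other 2 OI libraries below them. The log2 difference was -0.14 ± 0.11 (SE; interval -0.41 to 0.13, limma adjusted p = 0.577), with 46 to 67 reads per library. Other settings and left-out libraries gave -0.25 to -0.06, so the size of this small difference is poorly fixed.

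Although both copies derive from Fdps, their levels differed in every library. Gm3571 was 9.25, 8.35 and 8.56 times as abundant as Gm5873 in control replicates 1 to 3 and 12.8, 12.1 and 10.9 times in OI replicates 1 to 3. The groups did not overlap, with means of 8.72 ± 0.47 in control and 11.9 ± 0.98 in OI (SD, n = 3 each). Counting error of Gm5873 alone gives a coefficient of variation of 12.2% to 14.7% per library, so the ratio is less well fixed than these SDs show. The log2 ratio was higher by 0.45 in OI (exact permutation test, two-sided, p = 0.1, the smallest that 3 against 3 allows), and by 0.40 to 0.51 without any 1 library. Another full-length copy of Fdps, Gm8163 on chromosome X, is 96.1% identical to it and was between 0.03 and 0.15 FPKM, below the filter. The short copy Gm48326, of 121 bases, was listed at 0 in all 6 libraries.

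Per unit length the order Hmgcs1, Gm48342, Gm3571, Gm37784, Gm5873 held in all 6 libraries. Gm48342 and Gm3571 were close in control, at 19.8 ± 3.21 and 16.7 ± 0.44 FPKM (SD, n = 3 each), and their values overlapped across libraries. By FPKM, control replicate 1 was the lowest control library for each of the 5 genes, and OI replicate 3 the highest OI library for each. Each was the smallest library of its group, at 24441000 and 25684000 reads or fragments, and the part of library size was not tested. AY036118 was at 70761 FPKM in control replicate 1 and 2450 FPKM in OI replicate 3, its highest values in the respective groups, and its part in the levels of the 5 genes was not tested. Without control replicate 1 the log2 differences were 0.23 for Hmgcs1, 0.18 for Gm48342, 0.94 for Gm37784, -0.18 for Gm5873 and 0.20 for Gm3571.

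**Figure D4:**
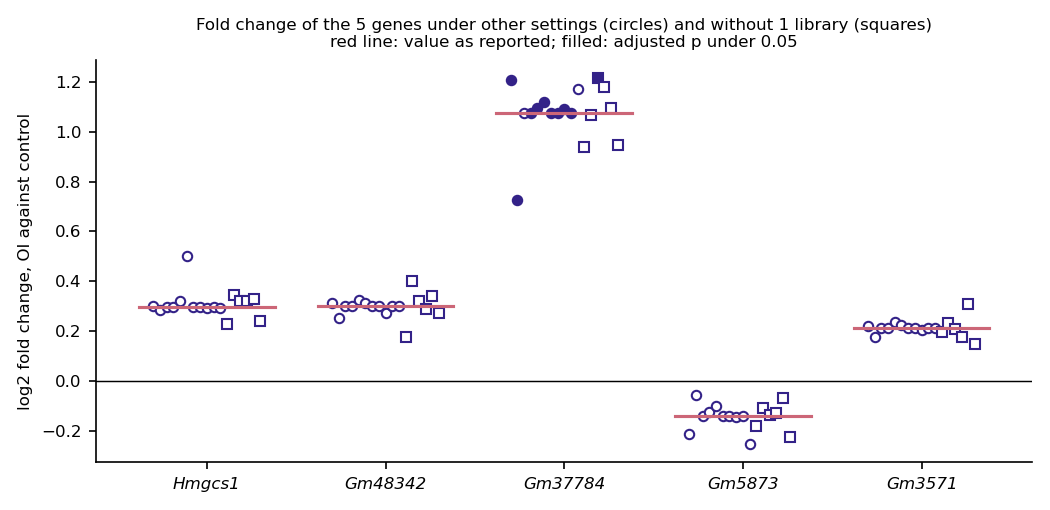
log2 fold change of each gene (y axis, OI against control) as reported (red line), under 11 other settings (circles, 10 for Gm5873) and without each library (squares), filled where the adjusted p was under 0.05. No gene changed direction, and filled symbols occur for Gm37784 only.

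The wider pathway was followed through 65 genes of cholesterol synthesis, sterol sensing, sterol uptake and transport, the isoprenoid branch and fatty acid synthesis. Of these 1, Hmgcs1, was among the genes analysed. Through shared exonic bases or near-identical transcripts, 13 tested genes were linked to the lists, the 5 above and 8 others, of which 7 are described below. None of the 8 others passed limma at an adjusted p of 0.05, and at an unadjusted p under 0.05 there were 3 of the 8, Gm48795 and Churc1 among them, where 17.8% of the tested genes had such a p. The median log2 difference was 0.30 over the 5 genes and 0.16 over the 8 others (0.09 over the 7 described), where all 1737 tested genes had -0.02. Means were higher in OI for 4 of the 5 and 7 of the 8, beside 44.6% of all tested genes. Several of the 13 share a parent or a locus, so they are not separate signals. Earlier results of these data were known when the genes and lists were chosen, so these shares are a description and not a test.

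The antisense gene 4930483K19Rik was linked to late cholesterol synthesis by shared exonic bases. It shares 381 of its 1237 bases with lanosterol synthase, Lss, and was between 1.03 and 1.54 FPKM, with a difference of 0.09 ± 0.12 (SE, limma adjusted p = 0.745) that lay between 0.0078 and 0.16 without any 1 library, lowest without OI replicate 3.

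The side branches gave values on both sides of 0. Churc1, a zinc finger protein gene that shares 257 of its 5693 exonic bases with the farnesyltransferase subunit gene Fntb, had a mean of 2.86 FPKM in control and 2.22 FPKM in OI, with groups that did not overlap (log2 difference -0.27 ± 0.10, limma adjusted p = 0.259). The copy of Coq2 (Gm6728), an enzyme of ubiquinone synthesis, was at 0.06 ± 0.19 and turned negative without control replicate 2 or 3. The copy of acetyl-CoA carboxylase, Acaca (Gm5182), was at 0.07 ± 0.08, with 810 to 1339 reads per library, and between 0.030 without OI replicate 3 and 0.13 without OI replicate 1. Malic enzyme, Me1, supplies NADPH to lipid synthesis, and 3 genes with near-identical transcripts were linked to it. Gm48795, Gm7049 and Gm7329 were at 0.34, 0.25 and 0.22 on the log2 scale, with limma adjusted p from 0.278 to 0.613 and overlapping groups. Single libraries moved these values: Gm7329 was at 0.051 without OI replicate 1, 0.10 without control replicate 1 and 0.39 without OI replicate 2, and Gm7049 at 0.11 without control replicate 3 and 0.38 without control replicate 1. For the first of them, Gm48795, the range was 0.26 to 0.47. Gm48795, annotated as a long intergenic RNA on the minus strand, and Gm7049, a processed pseudogene on the plus strand, overlap each other on chromosome 13. The orientation of the match between Gm48795 and Me1 was not tested.

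**Figure D5:**
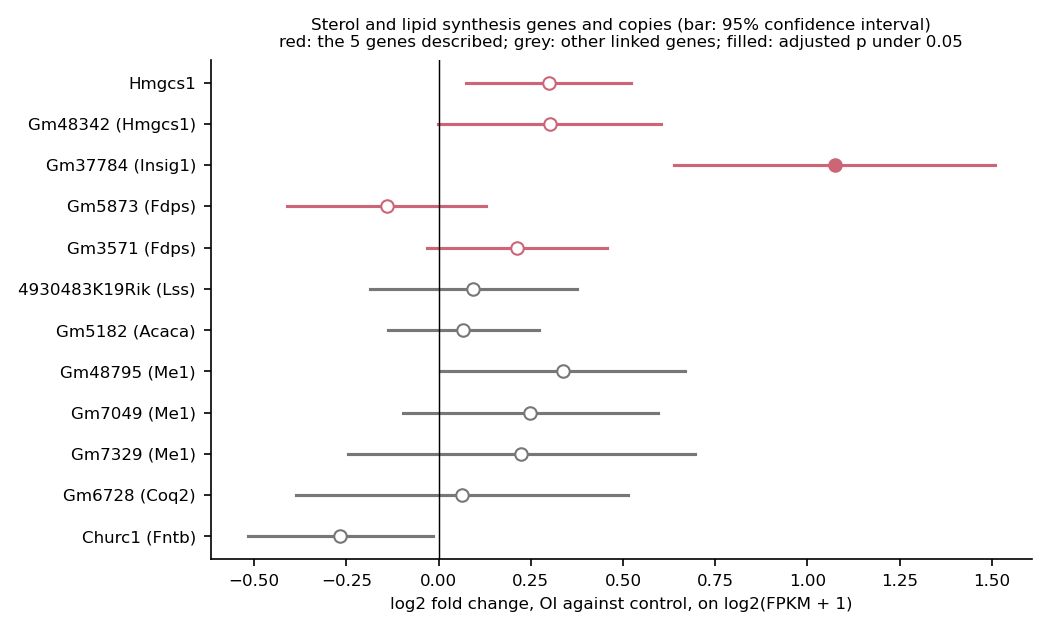
log2 fold change on log2(FPKM + 1) with its 95% confidence interval for the 5 genes described (red) and 7 of the 8 other linked genes (grey), with the list gene in brackets. Gm37784 alone is filled (adjusted p under 0.05), at 1.07, and 10 of the 12 points lie above 0.

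The genes whose log2(FPKM + 1) values were most alike to each of the 5 over the 6 libraries were looked up among 1732 tested genes. These Pearson correlations describe 6 libraries of 2 groups and carry no p. Among the 3 nearest of Hmgcs1 were Smim13 (0.97) and Gm45819 (0.97), and among those of Gm48342 were Smim13 (0.97) and A230020J21Rik (0.97). Smim13, a gene for a small membrane protein, was thus near both genes of the Hmgcs1 locus, with correlations within groups of 0.92 and 0.95. For Gm37784 the nearest were Gm45819 (0.98), Ugt1a7c (0.97) and Gm17828 (0.96). Ugt1a7c, a glucuronosyltransferase gene, had a mean of 0.77 FPKM in control and 3.06 FPKM in OI (limma adjusted p = 0.110). The Fdps copies had other neighbours, Gm37768 (0.98), Gm35558 (0.96) and Gm28592 (0.96) for Gm3571 and 1700096K18Rik (0.99), 1810014B01Rik (0.97) and Gm26786 (0.96) for Gm5873.

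Among the 5 genes themselves, over the 6 libraries, the correlation of log2(FPKM + 1) was 0.94 between Hmgcs1 and Gm48342, 0.94 between Hmgcs1 and Gm37784 and 0.82 between Hmgcs1 and Gm3571. With Gm5873 it was -0.12 for Hmgcs1 and 0.07 for Gm3571. Around the group means, Hmgcs1 had correlations of 0.87 with Gm48342, 0.79 with Gm37784 and 0.56 with Gm3571. The lowest within groups was 0.24, between Gm37784 and Gm3571, against 0.73 over the 6 libraries. Gm5873 had correlations around the group means of 0.85 with Hmgcs1 and 0.87 with Gm3571. Gm5873 held 55, 54 and 54 reads in OI replicates 1 to 3, so its OI FPKM values differed mainly through library size. Those sizes were 32122000, 36274000 and 25684000. Its coefficient of variation between control libraries, 7.68%, was below the 12.2% to 14.7% of counting error there. How far the correlations of Gm5873 reflect library size and counting error was not tested. The log2 differences of the Fdps copies between groups, neither of which passed, lay on opposite sides of 0. These points share libraries and the difference between groups, and the pairs at one locus or with one parent may share reads.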

How the data were processed

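The authors deposited FPKM values per gene, 1 table per sample. Cutadapt 2.7, HISAT2 2.1.0, StringTie 1.3.3b and mm10 are named, without their roles, per the submitters' processing notes. Of 27943 rows, 1 with broken annotation was left out.

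Reads were recovered as FPKM times the exonic length of all transcripts of a gene in GENCODE M21 (GRCm38) times library size. Between 98.2% and 98.5% of values above 0 came out within 0.01 of a whole number, against 84.5% to 86.0% with the deposited length. Genes with 1 FPKM or more in at least 3 of 6 libraries (1737, all 5 described genes among them) were compared on log2(FPKM + 1) with limma (version 3.58.1; R version 4.3.3), trend=TRUE, two-sided, Benjamini-Hochberg over all genes, threshold 0.05. The fit was tested on simulated data. Fold changes on this scale understate low genes. Copies were found by megablast (BLAST+ 2.17.0) at 90% identity or more over 80% of the transcript, with E-values up to 1e-10. Named were the 5 genes, every tested gene linked to the 5 lists, and the 3 tested genes most correlated with each. Of the genes this rule names, 1 is not reported here. Sequences came from GENCODE M21 transcripts and RefSeq. Ratios were tested by exact permutation in SciPy 1.17.1. Alternatives were pseudocounts of 0.1 and 5, no filter (genes above 0 in any library), a filter at 5 FPKM, quantile normalization, scaling by median of ratios, array weights, robust=TRUE, trend=FALSE, the replicate block, limma voom on recovered reads (genes with 10 or more in 3 libraries), and leaving out each library. The genes and lists were chosen with earlier results of these data known.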

Additional observations from a re-analysis of the deposited data

How the results depend on the processing

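No direction changed for any of the 5 genes under the 11 other settings or the 6 left-out libraries. A filter at 5 FPKM removed Gm5873. The call of Gm37784 ended with no filter (10948 genes tested, log2 difference 1.07, limma adjusted p = 0.149) and with limma voom on recovered reads (1.17, adjusted p = 0.0790), and held in the other 9 settings (adjusted p from 0.0234 to 0.0460). Without 1 library its difference ran from 0.94 to 1.21, and the call held without control replicate 3 only (limma adjusted p = 0.0475). The count of genes past the threshold, 48, ran from 14 with no filter to 62 with limma voom on recovered reads (3053 genes tested). Without 1 library it was 15 to 27, where fewer samples enter the fit.

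Over the tested genes, same-numbered deviations from the group means correlated little, at 0.05, 0.14 and -0.08. These values do not settle pairing, since the labels do not say what the replicate numbers mark. With the number as a block 17 genes passed, and no call changed for the 5 genes (Gm37784 limma adjusted p = 0.0234). The SE of Gm37784 was then 0.08, against 0.18 without the block. The ratio of Gm48342 to Hmgcs1 reversed without control replicate 1 (log2 difference -0.044) or OI replicate 1 (-0.026), within a range of -0.044 to 0.071, and Gm6728 without control replicate 2 (-0.049) or 3 (-0.018), within -0.049 to 0.26. The cause was not tested. Read numbers limit Gm37784 and Gm5873 most, at 18 to 76 and 46 to 67 per library. With 3 libraries per group a permutation test cannot fall below 0.1.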
